A study of Mus musculus with 90 samples.

Results

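Liver in which the glucagon receptor gene Gcgr was knocked down was compared with control liver, in polyA RNA sequencing of mouse tissue. The comparison comprised the 10 libraries labelled Exp1_Gcgr KD and the 10 labelled Exp1_Control, 20 of the 90 libraries of the series. In both groups mice had received AAV8, a virus that carries its cargo to the liver, with a short hairpin RNA (shRNA), and the groups differed in the labelled treatment, Gcgr KD or Control. The same experiment held 10 libraries each of Gnas KD, PKA KD and Epac2 KD, which target steps below the receptor. A second experiment held 10 libraries of Control AAV with an antibody against the receptor (Gcgr mAb) and 10 of Control AAV with a control antibody. These 4 other groups and their controls are used below only to show where Gcgr KD differed from them or changed in the same direction. The labels state neither strain, sex, age, vector dose nor feeding state, and they give no hairpin sequence.

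Glucagon, secreted by pancreatic alpha cells, binds its receptor on hepatocytes, where the G protein encoded by Gnas raises cyclic AMP (cAMP). Cyclic AMP frees the catalytic subunits of protein kinase A (PKA), and PKA phosphorylates enzymes and the transcription factor CREB. In liver the pathway is known for raising glucose output, the breakdown of amino acids to urea, and fatty acid oxidation.

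Library totals ran from 22.0 M to 28.4 M counts in Control and from 22.1 M to 29.2 M counts in Gcgr KD. Levels are given as CPM, counts divided by the TMM-scaled library total in M, and changes as log2 fold changes of Gcgr KD over Control ± SE, with n = 10 libraries in each group. Sums of cell type markers are instead counts divided by the unscaled library total in M, unless the TMM-scaled total is named. A gene was called, and is said to have risen or fallen, at an adjusted p under 0.05 in the quasi-likelihood test of edgeR with Benjamini-Hochberg adjustment over the 13574 genes tested. The labels number the libraries of a group but do not say that each number was a separate mouse, and the spread tested may therefore be technical in part. Hepatocyte markers stood at a summed 89034 to 126906 CPM in Control and 79824 to 122057 CPM in Gcgr KD, and among the 10 of them Alb alone was called, at -0.35 ± 0.11 (adjusted p = 0.0438, and above 0.05 when any 1 of 13 libraries was left out). DESeq2 called 3 falls among them and limma-voom 1, and 3 were lower and 0 higher at an unadjusted p under 0.05. Summed Kupffer cell and macrophage markers ran from 221 to 410 CPM (median 286) in Control and from 214 to 860 CPM (median 431) in Gcgr KD. On the TMM-scaled total their medians were 284 and 401 CPM, and all 13 of them had positive changes. Cholangiocyte markers ran from 52.2 to 137 CPM (median 61.5) against 56.6 to 261 CPM (median 114), and stellate cell markers from 417 to 755 CPM (median 547) against 467 to 1010 CPM (median 704). None of the Kupffer cell, cholangiocyte or stellate cell markers was called with edgeR, DESeq2 or limma-voom, while 5 Kupffer cell, 2 cholangiocyte and 5 stellate cell markers were higher at an unadjusted p under 0.05, and 4 stellate cell markers were called with a male-biased gene score as a covariate. Cftr, Sctr and Mmp7 of cholangiocytes and Adipoq, Plin1, Lep and Retn of adipocytes were too low to be tested. In bulk tissue fewer cells of a type and less RNA per cell cannot be told apart.

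The targeted gene separated the groups in every library. Gcgr (Entrez gene 14527, chr11:120529185-120538989 in GRCm38.p6) lay at 146 CPM in the lowest Control library, 172 CPM at the median and 218 CPM in the highest, against 38.3, 44.9 and 54.1 CPM in Gcgr KD. The highest Gcgr KD library stood below the lowest Control library, and the change was -1.91 ± 0.10 (adjusted p = 1.22e-20). With Gnas, PKA and Epac2 KD the same transcript stood at -0.13, -0.26 and -0.04, and with Gcgr mAb at -0.02. In all, 981 genes were called (7.23%), of which 393 rose (2.9% of genes tested) and 588 fell (4.33%). The median absolute log2 change was 0.42 among rises and 0.33 among falls. In 129 of 13574 genes (0.95%) the 10 libraries of one group did not overlap the 10 of the other, 33 of them called rises and 95 called falls.

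Below the receptor, the G protein and the catalytic subunits of PKA were not called. Of 19 tested receptors, G proteins and adenylyl cyclases, Gcgr was the 1 called gene (5.26%, near the 7.23% of all genes called). Gnas was at -0.01 ± 0.10 (adjusted p = 0.954), and the catalytic subunits Prkaca and Prkacb were at 0.02 ± 0.12 (adjusted p = 0.956) and -0.06 ± 0.081 (adjusted p = 0.726). Rapgef4, which encodes the cAMP sensor Epac2, was at 0.06 ± 0.16 (adjusted p = 0.86).

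Among 12 PKA subunits, inhibitors, anchors and Epac factors, 1 rose (8.33%, against 2.9% of all genes) and 2 fell (16.7%, against 4.33%). Prkar1a, the regulatory subunit that holds the catalytic subunits inactive, ranged from 123 to 134 CPM (median 128) in Control and from 103 to 120 CPM (median 113) in Gcgr KD. The groups did not overlap, though the change was small at -0.18 ± 0.037 (adjusted p = 0.001). Akap1, which anchors PKA at mitochondria, fell by 0.24 ± 0.058 on the log2 scale (adjusted p = 0.00543). Prkar1b, a regulatory subunit best known from brain, rose by 0.96 ± 0.26 (adjusted p = 0.0165) at a very low level, from a median of 0.246 to 0.450 CPM.

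Phosphodiesterases, which break down cAMP, held 1 rise (7.14%, against 2.9% of all genes) and 4 falls (28.6%, against 4.33%) among 14 tested members. Pde4b, whose transcription cAMP is known to raise, ran from 12.9 to 32.3 CPM (median 19.03) in Control and from 6.20 to 16.9 CPM (median 11.6) in Gcgr KD. Pde4b fell by 0.85 ± 0.17 (adjusted p = 0.000612), with 6 Gcgr KD libraries below all Control libraries. Pde4c fell by 0.50 ± 0.12 (adjusted p = 0.00362), the insulin-responsive Pde3b by 0.31 ± 0.060 (adjusted p = 0.000346) and Pde8a by 0.29 ± 0.088 (adjusted p = 0.033, lost on leaving out any 1 of 8 libraries). Pde4a went the other way, from a median of 5.62 to 9.49 CPM, a rise of 0.55 ± 0.14 (adjusted p = 0.00892). Of 12 genes of CREB, its coactivators and the salt-inducible kinases, 1 was called (8.33%, near the 7.23% of all genes). It was the kinase gene Sik3, at -0.17 ± 0.048 (adjusted p = 0.0195, and 0.0543 without Gcgr KD replicate 3). Crem, a cAMP-induced member of the CREB family, was at -0.26 ± 0.13 (adjusted p = 0.232), and Creb3l3, a liver factor activated by fasting, at -0.11 ± 0.10 (adjusted p = 0.59). Among 15 immediate early genes 2 rose (13.3%, against 2.9% of all genes) and 0 fell. Fosb rose by 1.24 ± 0.26 (adjusted p = 0.00113) and Atf3 by 0.85 ± 0.26 (adjusted p = 0.0376, lost on leaving out any 1 of 11 libraries), each from a low level.

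**Figure D1:**
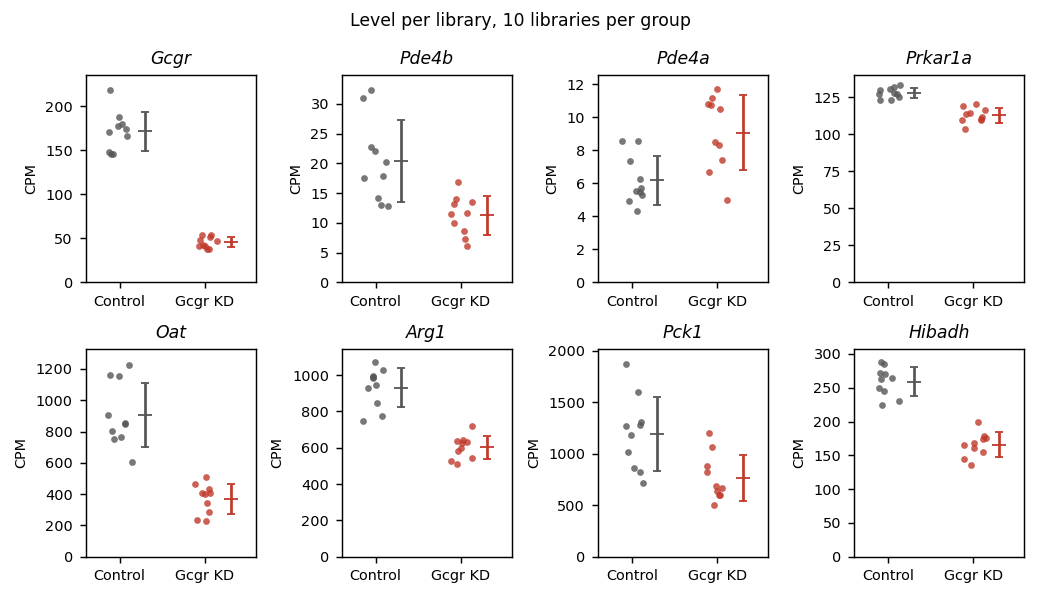
Level in CPM of 8 genes in each of 10 Control and 10 Gcgr KD libraries (points), with the mean and SD beside them and each axis starting at 0. Gcgr, Oat, Arg1, Prkar1a and Hibadh show no overlap between the groups, Pde4b and Pck1 overlap in part, and Pde4a is higher in Gcgr KD.

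Enzymes of amino acid breakdown fell in several routes and rose in none. Across 8 lists, 29 of 112 tested genes fell (25.9%, where 4.33% of all genes fell) and 0 rose, and 94 of the 112 had a change below 0. The median was -0.19, against 0.01 for all genes tested. At an unadjusted p under 0.05, 50 were lower and 4 higher, while DESeq2 called 37 falls and limma-voom 31, each with 0 rises.

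Ornithine and proline catabolism held the steepest of these falls. Oat, ornithine aminotransferase (Entrez gene 18242, chromosome 7), lay between 602 and 1227 CPM (median 851) in Control and between 228 and 511 CPM (median 405) in Gcgr KD. All 10 Gcgr KD libraries were below all Control libraries, with a change of -1.29 ± 0.19 (adjusted p = 6.8e-06). Aldh4a1, the next step toward glutamate, fell by 0.40 ± 0.087 (adjusted p = 0.00185). Arg1, the arginase that releases urea, ran from 747 to 1073 CPM (median 965) in Control and from 513 to 723 CPM (median 613) in Gcgr KD, again without overlap, and changed by -0.63 ± 0.087 (adjusted p = 1.03e-06). In the urea cycle list 3 of 10 fell (30%, against 4.33% of all genes) and all 10 had changes below 0. The other falls there were Slc25a22, a mitochondrial glutamate carrier, at -0.42 ± 0.11 (adjusted p = 0.0123) and Car5a, the mitochondrial carbonic anhydrase, at -0.38 ± 0.12 (adjusted p = 0.0429, lost on leaving out any 1 of 14 libraries). Cps1, the enzyme that feeds ammonia into the cycle, was at -0.31 ± 0.15 (adjusted p = 0.2).

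Of 14 genes that handle glutamine, glutamate, alanine and aspartate 4 fell (28.6%, against 4.33% of all genes) and 0 rose. Gls2, the liver glutaminase, had 166 to 307 CPM (median 265) in Control and 105 to 223 CPM (median 157) in Gcgr KD, so the groups overlapped, and it fell by 0.69 ± 0.21 (adjusted p = 0.0346). Got2, the mitochondrial aspartate aminotransferase, fell by 0.30 ± 0.048 (adjusted p = 1.46e-05) without overlap. The alanine aminotransferase Gpt fell by 0.34 ± 0.10 (adjusted p = 0.0362) and glutamate dehydrogenase Glud1 by 0.21 ± 0.067 (adjusted p = 0.0449). The calls other than Got2 were each lost when any of several libraries was left out, 8 for Gls2, 9 for Gpt and 15 for Glud1, and 1 fall was left in the list without Control replicate 3 or 4 or Gcgr KD replicate 6 or 8. Got1, the cytosolic counterpart, was at -0.72 ± 0.23 with an adjusted p of 0.0507, which passed when any 1 of 6 libraries was left out and reached 0.127 without another.

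In methionine, homocysteine and cysteine metabolism 5 of 15 genes fell (33.3%, against 4.33% of all genes) and 0 rose. However, 6 of the 15 changes were above 0 and the median was -0.08. In the serine, glycine and threonine list Gnmt, which uses up S-adenosylmethionine, was the 1 fall among 16 (6.25%, against 4.33% of all genes). Gnmt went from a median of 1200 CPM (866 to 1679) to 811 CPM (562 to 920), a change of -0.70 ± 0.13 (adjusted p = 0.000169). Cbs, the first step from homocysteine to cysteine, fell by 0.68 ± 0.12 (adjusted p = 5.11e-05), from a median of 568 to 344 CPM. Mat1a, which makes S-adenosylmethionine in liver, fell by 0.45 ± 0.11 (adjusted p = 0.00713). Sulfite oxidase Suox and mercaptopyruvate sulfurtransferase Mpst fell by 0.44 and 0.42 (the latter lost on leaving out any 1 of 4 libraries), and cysteine dioxygenase Cdo1, with 1028 to 1556 CPM (median 1349) in Control and 944 to 1289 CPM (median 1021) in Gcgr KD, fell by 0.36 ± 0.10 (adjusted p = 0.0179).

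Branched-chain amino acid and lysine oxidation had 9 falls among 22 tested genes (40.9%, against 4.33% of all genes), and 21 of the 22 changes were below 0. Hibadh, an enzyme of valine breakdown, had 224 to 288 CPM (median 264) in Control and 135 to 200 CPM (median 167) in Gcgr KD, with no overlap and a change of -0.64 ± 0.078 (adjusted p = 4.69e-08). Bcat2, which removes the amino group of branched-chain amino acids, fell by 0.70 ± 0.14 (adjusted p = 0.000659) from a median of 16.6 to 10.3 CPM. Ivd, on the leucine route, fell by 0.45, and glutaryl-CoA dehydrogenase Gcdh, on the lysine route, by 0.32. Hibadh and Bcat2 were also lower in Gcgr KD than in each of the other knockdowns, and Bcat2 is 1 of 2 among the 29 falls that carry the 7-base sequence described below (the other is Cbs).

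In the aromatic routes the falls were of a like size. Qdpr, which recycles tetrahydrobiopterin, fell by 0.45 ± 0.092 (adjusted p = 0.000779), homogentisate dioxygenase Hgd by 0.40 ± 0.094 (adjusted p = 0.00438) and Gstz1, its follower in tyrosine breakdown, by 0.38 ± 0.070 (adjusted p = 0.000229). Of the tryptophan route Haao fell by 0.42 and Afmid by 0.48, the latter call lost on leaving out any 1 of 7 libraries. Tat, which opens tyrosine breakdown, was at -0.59 ± 0.21 (adjusted p = 0.0729, and 0.0498 without Control replicate 5), and its 10 Gcgr KD libraries all lay below the Control median. The histidine ammonia-lyase Hal was at -0.39 ± 0.19 (adjusted p = 0.229) and the serine dehydratase Sds at -0.51 ± 0.27 (adjusted p = 0.281).

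Of 26 amino acid transporters 3 fell (11.5%, against 4.33% of all genes) and 1 rose (3.85%, near the 2.9% of all genes). Slc38a4, a hepatocyte uptake system, went from 616 to 851 CPM (median 742) in Control to 416 to 624 CPM (median 525) in Gcgr KD and fell by 0.50 ± 0.090 (adjusted p = 0.000126). The glutamine transporter Slc38a3 fell by 0.53 ± 0.11 (adjusted p = 0.00116) and Slc38a2 by 0.36 ± 0.093 (adjusted p = 0.0103). Slc7a5, which carries large neutral amino acids, rose by 0.58 ± 0.16 (adjusted p = 0.0204) from a median of 1.85 to 2.69 CPM, with no overlap. Slc7a2, a carrier of arginine and lysine, was at -0.44 ± 0.17 (adjusted p = 0.12). Slc38a5 was too low to be tested.

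Gluconeogenesis genes fell in 7 of 23 cases (30.4%, against 4.33% of all genes) and rose in none (12 lower and 0 higher at an unadjusted p under 0.05, with 8 falls by DESeq2 and 7 by limma-voom). Pck1, the cytosolic enzyme that forms phosphoenolpyruvate, had 714 to 1873 CPM (median 1226) in Control and 500 to 1200 CPM (median 676) in Gcgr KD. The groups overlapped, with 6 Gcgr KD libraries below all Control libraries, and the fall was 0.64 ± 0.19 (adjusted p = 0.0327, and up to 0.0787 when any 1 of 8 libraries was left out). Slc25a25, a mitochondrial ATP and phosphate carrier placed in this list, fell by 0.90 ± 0.22 (adjusted p = 0.00554) from a median of 194 to 103 CPM. Fbp1, fructose bisphosphatase, fell by 0.48 ± 0.12 (adjusted p = 0.00809), with 857 to 1129 CPM (median 982) in Control and 457 to 945 CPM (median 746) in Gcgr KD. The glycerol phosphate dehydrogenase Gpd1 fell by 0.47 and lactate dehydrogenase Ldha by 0.36, while the malate dehydrogenases Mdh1 and Mdh2 fell by 0.23 and 0.20. G6pc, the last step of glucose release, was at -0.36 ± 0.24 (adjusted p = 0.401), and the coactivator Ppargc1a at 0.11 ± 0.14 (adjusted p = 0.709).

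CREB binds a cAMP response element, TGACGTCA, or its shorter part TGACG, and the promoters of Pck1 and Slc25a25 are shown because both genes fell and both hold such letters. The sequences run 5′ to 3′ on the gene's strand from 250 bases before to 50 after a RefSeq start in GRCm38.p6, and capitals mark TGACG on either strand or TGACGTCA. The first is chr2:173152823-173153122 (+) and the second chr2:32424017-32424316 (-), which was chosen among 3 listed Slc25a25 promoters because it alone holds the motif.
Pck1: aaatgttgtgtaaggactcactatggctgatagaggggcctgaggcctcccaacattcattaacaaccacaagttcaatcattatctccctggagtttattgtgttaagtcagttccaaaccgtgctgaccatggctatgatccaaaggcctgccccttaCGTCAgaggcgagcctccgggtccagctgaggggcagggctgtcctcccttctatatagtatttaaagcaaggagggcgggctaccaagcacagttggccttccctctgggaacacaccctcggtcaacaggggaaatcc
Slc25a25: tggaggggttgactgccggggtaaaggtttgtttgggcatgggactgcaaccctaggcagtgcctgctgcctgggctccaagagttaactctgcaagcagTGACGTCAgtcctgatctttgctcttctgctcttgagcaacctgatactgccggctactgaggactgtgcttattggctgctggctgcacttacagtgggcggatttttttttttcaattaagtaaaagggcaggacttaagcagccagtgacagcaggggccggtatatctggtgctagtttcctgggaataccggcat
The motif begins 90 bases before the start in Pck1 and 150 bases before it in Slc25a25. TGACGTCA on either strand stood in promoters of 367 of 10781 tested genes (3.4%), of 22 of 471 falls (4.67%) and of 7 of 311 rises (2.25%), where a gene counts if any of its listed promoters holds it. The shorter TGACG, which includes every longer match, stood in 34.2% of genes, 38.85% of falls and 29.9% of rises. These are matches of letters, and binding was not measured.

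Glucose uptake and glycolysis genes had 3 falls among 27 (11.1%, against 4.33% of all genes). The glycogen list had 2 rises (11.1%, against 2.9% of all genes) and 1 fall among 18, the fall (5.56%) near the share of all genes. Pfkfb1, the liver enzyme that sets fructose 2,6-bisphosphate, fell by 0.47 ± 0.11 (adjusted p = 0.00264), and the pyruvate dehydrogenase subunits Pdha1 and Pdhb fell by 0.34 (lost on leaving out any 1 of 8 libraries) and 0.25. Pgm2, a phosphoglucomutase, rose by 0.51 ± 0.13 (adjusted p = 0.00891) and the phosphorylase kinase subunit Phkb by 0.19 ± 0.057 (adjusted p = 0.0293), while Pgm1 fell by 0.18 ± 0.052 (adjusted p = 0.0251). The calls of Phkb and Pgm1 were lost on leaving out any 1 of 6 and any 1 of 3 libraries.

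Fatty acid oxidation and ketogenesis held 12 falls and 0 rises among 30 tested genes (40% against 4.33%), and 29 of the 30 changes were below 0. With an unadjusted p under 0.05 the counts were 23 lower and 0 higher, and with 1 library left out 10 to 14 genes fell. Cpt2, which hands fatty acids to the mitochondrial matrix, went from 115 to 148 CPM (median 134) to 91.2 to 110 CPM (median 99.3), with no overlap and a change of -0.43 ± 0.057 (adjusted p = 3.05e-07). Acadl, a long-chain acyl-CoA dehydrogenase, fell by 0.45 ± 0.089 (adjusted p = 0.000485) and the isomerase Eci1 by 0.42 ± 0.089 (adjusted p = 0.00142), neither with overlap. Acadm and Etfdh, of medium-chain oxidation and electron transfer, fell by 0.36 and 0.33. Cpt1a, the entry step, was at -0.20 ± 0.098 (adjusted p = 0.219).

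Subunits of the respiratory chain encoded in the nucleus fell by small amounts in 18 of 42 cases (42.9%, against 4.33% of all genes). There were 0 rises, and all 42 changes lay between -0.34 and -0.09. At an unadjusted p under 0.05, 31 were lower and 0 higher, and 18 fell by limma-voom and 20 by DESeq2. Examples were the ATP synthase subunit Atp5d at -0.34, the complex III core protein Uqcrc2 at -0.28, the complex I subunit Ndufb8 at -0.27 and cytochrome c1, Cyc1, at -0.26. Without Gcgr KD replicate 8 the count was 11 of 42. The share of counts from mitochondrially encoded genes was 8.72% to 15.03% in Control and 7.03% to 11.8% in Gcgr KD, lowest in that same replicate 8. All 13 mitochondrially encoded genes had changes below 0, with a median of -0.36, and CYTB fell by 0.56 ± 0.18 (adjusted p = 0.0422, lost on leaving out any 1 of 13 libraries). The part of the mitochondrial share in the other results was not tested.

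Lipid droplet proteins and lipases were called 7 times among 20, with 6 falls (30%, against 4.33% of all genes) and 1 rise (5%, against 2.9%). Cidea, which fuses lipid droplets, went from a median of 22.3 CPM (7.62 to 29.4) to 6.05 CPM (0.243 to 14.7), a change of -1.90 ± 0.59 (adjusted p = 0.0385, lost on leaving out any 1 of 12 libraries). Cfd, the complement protease adipsin, spanned 1.96 to 29.7 CPM (median 12.4) in Control and 0.364 to 10.2 CPM (median 2.43) in Gcgr KD, and fell by 1.91 ± 0.53 (adjusted p = 0.0171). The droplet formation genes Fitm1 and Fitm2 fell by 0.80 ± 0.11 (adjusted p = 1.62e-06, no overlap) and 0.62 ± 0.13 (adjusted p = 0.000906). G0s2, an inhibitor of triglyceride lipase, fell by 0.95 ± 0.29 (adjusted p = 0.0359, lost on leaving out any 1 of 10 libraries), the monoglyceride lipase Mgll fell by 0.42, and lipoprotein lipase Lpl rose by 0.59 ± 0.17 (adjusted p = 0.0291, lost on leaving out any 1 of 7 libraries). The count of falls was 3 without Control replicate 2, 4 or 6 or Gcgr KD replicate 2, 3 or 7.

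Fatty acid elongation and desaturation held 3 falls (20%, against 4.33% of all genes) and 1 rise (6.67%, against 2.9%) among 15. Elovl3, an elongase that varies strongly between livers, ranged from 32.9 to 281 CPM (median 162) in Control and from 10.4 to 140 CPM (median 35.8) in Gcgr KD, with 2 Gcgr KD libraries below all Control libraries. It fell by 1.42 ± 0.42 (adjusted p = 0.0294, lost on leaving out any 1 of 7 libraries). Fads1, a desaturase of polyunsaturated fatty acids, fell by 0.70 ± 0.17 (adjusted p = 0.00543). In that list 1 gene fell without Control replicate 3 or 7 or Gcgr KD replicate 1, 8 or 9. None of 20 genes of de novo lipogenesis was called by edgeR, DESeq2 or limma-voom, with 4 lower and 0 higher at an unadjusted p under 0.05, and Fasn, fatty acid synthase, was at -0.26 ± 0.34 (adjusted p = 0.711). Of 28 cholesterol genes 2 fell (7.14%, against 4.33% of all genes), the sterol isomerase Ebp at -0.34 and the exporter Abca1 at -0.37 (lost on leaving out any 1 of 11 libraries). Cyp7a1, the rate-limiting enzyme of bile acid synthesis, was at 0.28 ± 0.28 (adjusted p = 0.612).

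**Figure D2:**
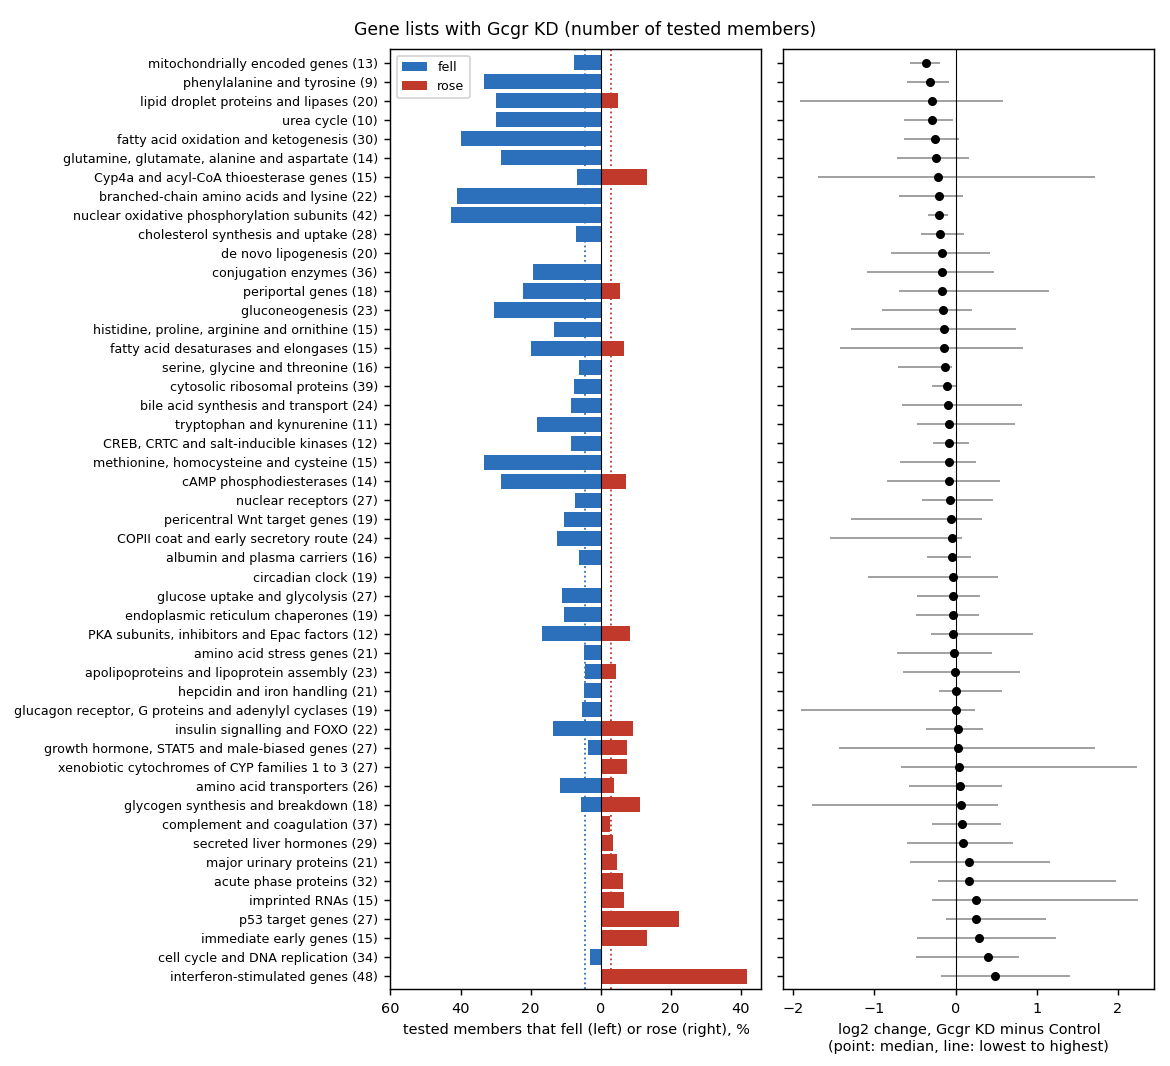
For 49 gene lists, the percent of tested members that fell or rose with Gcgr KD (left, with dotted lines at 4.33% and 2.9%, the shares of all genes) and the median and range of their log2 changes (right). Falls are most frequent in respiratory chain subunits, branched-chain amino acid oxidation and fatty acid oxidation, and rises in interferon-stimulated and p53 target genes.

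Several of the steepest falls were of genes that belong to none of these metabolic routes and were lower in Gcgr KD than in every other knockdown. In 78 of 13574 genes (0.575%) the level with Gcgr KD was lower than in Control and lower than in each of Gnas, PKA and Epac2 KD, where all 3 of the latter contrasts use the same Gcgr KD libraries. Higher than all 4 groups were 9 genes (0.0663%), among them the interferon-induced Samd9l and Eif2ak2. Sec23b (Entrez gene 27054, chromosome 2), a coat protein of vesicles that leave the endoplasmic reticulum, lay between 37.8 and 57.0 CPM (median 49.5) in Control and between 11.7 and 20.5 CPM (median 16.6) in Gcgr KD, a change of -1.55 ± 0.11 (adjusted p = 1.38e-15). Ergic1 (Entrez gene 67458, chromosome 17), a protein of the compartment that receives those vesicles, went from 89.4 to 105 CPM (median 98.2) to 32.4 to 51.4 CPM (median 38.3), a change of -1.30 ± 0.058 (adjusted p = 1.74e-23). Neither gene showed overlap between the groups. With Ergic2 at -0.40 ± 0.088 (adjusted p = 0.00195) they were the 3 called genes among 24 of the early secretory route, all falls (12.5%, against 4.33% of all genes). All 3 carry the 7-base sequence described below in their 3′ UTR.

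Other genes of this kind had varied roles. Srp9, part of the signal recognition particle, went from a median of 40.2 CPM (34.9 to 49.2) to 17.7 CPM (16.5 to 21.8), a change of -1.18 ± 0.077 (adjusted p = 5.28e-17). Rabac1, a membrane protein that binds Rab proteins, went from a median of 24.9 CPM (19.01 to 31.3) to 11.3 CPM (7.85 to 13.6), a change of -1.22 ± 0.12 (adjusted p = 1.28e-10). Abt1, a nuclear activator of basal transcription, went from a median of 8.96 CPM (8.21 to 11.1) to 4.25 CPM (3.02 to 5.42), a change of -1.14 ± 0.086 (adjusted p = 1.3e-14). All 3 separated the groups in full. Further falls in this set, chosen here after their values were seen, were the splicing factor Smu1 at -0.99 ± 0.064 (adjusted p = 4.68e-17), the adaptor Abtb1 at -0.95 ± 0.11 (adjusted p = 3.71e-08), the phosphatase subunit Ppp1cb at -0.73 ± 0.054 (adjusted p = 5.05e-15) and the small GTPase Rac1 at -0.37 ± 0.042 (adjusted p = 7.58e-09). Of the 78, 41 had groups that did not overlap, and their median log2 change was -0.47, values that the choice of these genes bears on, since all 4 contrasts use the same Gcgr KD libraries.

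A hairpin RNA can lower transcripts other than its target that pair with 7 bases of its guide strand. The 7-mer GCGTCCT was known from earlier work on these data to be frequent in falls of Gcgr KD, so its counts are a description and support nothing independent. It was searched, on the transcript strand, in the longest annotated 3′ UTR of each gene (GENCODE M21, GRCm38). The sites below are shown because they lie in steep falls of this set. Each is a 30-base window with the 7-mer in capitals, 5′ to 3′ on the transcript strand.
Sec23b, 3′ UTR, chr2:144590426-144590455 (+): cgttgttgataGCGTCCTagcaacattcac
Ergic1, 3′ UTR, chr17:26655218-26655247 (+): ccctgcctctgGCGTCCTatctccttctgc
Srp9, 3′ UTR, chr1:182131561-182131590 (+): gagaccagcctGCGTCCTaaagtttgcttt
Abtb1, 3′ UTR, chr6:88836016-88836045 (-): catctcccccaGCGTCCTacctgctccctc
Ppp1cb, 3′ UTR, chr5:32492544-32492573 (+): gaaaccttataGCGTCCTtgaaagtgttaa
The letters outside the capitals differ between the sites. Srp9 holds a further copy in its 3′ UTR, and Abtb1 holds one in its coding sequence. The 7-mer stood in 342 of 12814 tested genes with a 3′ UTR (2.67%), in 62 of 561 falls (11.05%) and in 2 of 379 rises (0.53%). Of the 77 genes below all other knockdowns that had a 3′ UTR, 30 held it (38.96%), against 32 of 484 other falls (6.61%). Rabac1, Abt1 and Hibadh had no copy in the 3′ UTR searched. Of the 342 genes with the 7-mer 18.1% fell, against 4% of those without, but their 3′ UTRs were also longer, with medians of 2379.5 and 1129 bases. Their median log2 change was -0.06 with Gcgr KD and 0.03 with Gcgr mAb. Whether pairing lowered any of these genes was not tested.

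In the lists of metabolic genes few falls held the 7-mer. Among genes with a 3′ UTR it stood in 2.67% of all tested and in 11.05% of falls. The lists are small, and whether they differ from either share was not tested. The 7-mer was in 0 of 12 fatty acid oxidation falls, 0 of 18 respiratory chain falls, 0 of 7 gluconeogenesis falls and 2 of the 29 amino acid falls. In the lipid droplet list Fitm2 held it, and among cholesterol genes Abca1.

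Interferon-stimulated genes were the list with the most rises. Of 48 tested members 20 rose (41.7%, where 2.9% of all genes rose) and 0 fell, 46 changes were above 0, and the median was 0.49. The counts at an unadjusted p under 0.05 were 30 higher and 0 lower, and DESeq2 called 24 and limma-voom 18 rises. Rsad2, which encodes the antiviral protein viperin, ran from 12.4 to 25.4 CPM (median 17.5) in Control and from 17.9 to 101 CPM (median 39.97) in Gcgr KD, a rise of 1.41 ± 0.22 (adjusted p = 8.95e-06). Mx1, an antiviral GTPase, ran from 1.48 to 2.09 CPM (median 1.85) in Control and from 2.16 to 7.88 CPM (median 3.77) in Gcgr KD without overlap, a rise of 1.27 ± 0.19 (adjusted p = 4.98e-06). Ifit1, which binds viral RNA, rose by 1.26 ± 0.27 (adjusted p = 0.00183).

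The rise differed in size between Gcgr KD libraries. Summed over the 48 genes, Gcgr KD replicate 5 stood at 2801 CPM and replicate 3 at 2266 CPM, while the other 8 Gcgr KD libraries lay between 1267 and 1817 CPM and the Control libraries between 1045 and 1557 CPM. Without replicate 3 or without replicate 5, 16 members rose. Replicate 3 also had the highest Kupffer cell marker sum, 860.5 CPM on the TMM-scaled total. Replicate 5 was low in those markers at 243 CPM on that scale, inside the Control range of 230 to 414 CPM. Ifit3b, a member of a family of near-identical genes whose reads the counting could split, ran from 3.36 to 5.72 CPM (median 4.80) in Control and from 5.94 to 29.0 CPM (median 10.3) in Gcgr KD, a rise of 1.33 ± 0.23 (adjusted p = 8.46e-05), and Ifit3 and Oas1g carry the same uncertainty. Other rises included Cmpk2 at 1.15, Ifit2 at 0.93 and Isg15 at 0.78. The interferon-induced factor Irf7 was at 0.39 ± 0.20 (adjusted p = 0.262).

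In the other knockdowns, which share the Control libraries, the median of the same 48 genes was -0.02 with Gnas KD, 0.37 with PKA KD and -0.50 with Epac2 KD. Tested directly between knockdowns, Rsad2 was lower in Gnas KD than in Gcgr KD by 1.26 ± 0.21 (adjusted p = 4.13e-05) and lower in Epac2 KD by 2.29 ± 0.22 (adjusted p = 7.37e-11). Between PKA KD and Gcgr KD the difference was -0.02 ± 0.21 (adjusted p = 0.964). Rsad2 was named for its large rise in these same Gcgr KD libraries, a choice that bears on the size of these differences.

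Target genes of p53, the transcription factor activated by DNA damage and other stress, rose in 6 of 27 cases (22.2%, against 2.9% of all genes) and fell in 0. Their median change was 0.25 (12 higher and 0 lower at an unadjusted p under 0.05, and 6 rises each by DESeq2 and limma-voom). Eda2r, a receptor of the tumour necrosis factor family, had 0.627 to 3.04 CPM (median 1.46) in Control and 2.26 to 4.81 CPM (median 3.12) in Gcgr KD, a rise of 1.07 ± 0.24 (adjusted p = 0.00281). Psrc1, a spindle protein, rose by 1.12 ± 0.35 (adjusted p = 0.0382, lost on leaving out any 1 of 10 libraries), Zmat3 by 0.51 ± 0.14 (adjusted p = 0.0142) and cyclin G1, Ccng1, by 0.43 ± 0.086 (adjusted p = 0.000661). Cdkn1a and Mdm2, which encode the cell cycle inhibitor p21 and the protein that degrades p53, were at 0.56 ± 0.31 (adjusted p = 0.288) and 0.24 ± 0.099 (adjusted p = 0.132). The count was 3 without Control replicate 3 or Gcgr KD replicate 4. The cell cycle list had 1 call among 34, a fall of Cdk2 (2.94%, against 4.33% of all genes, and lost on leaving out any 1 of 13 libraries), although the list median was 0.40.

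**Figure D3:**
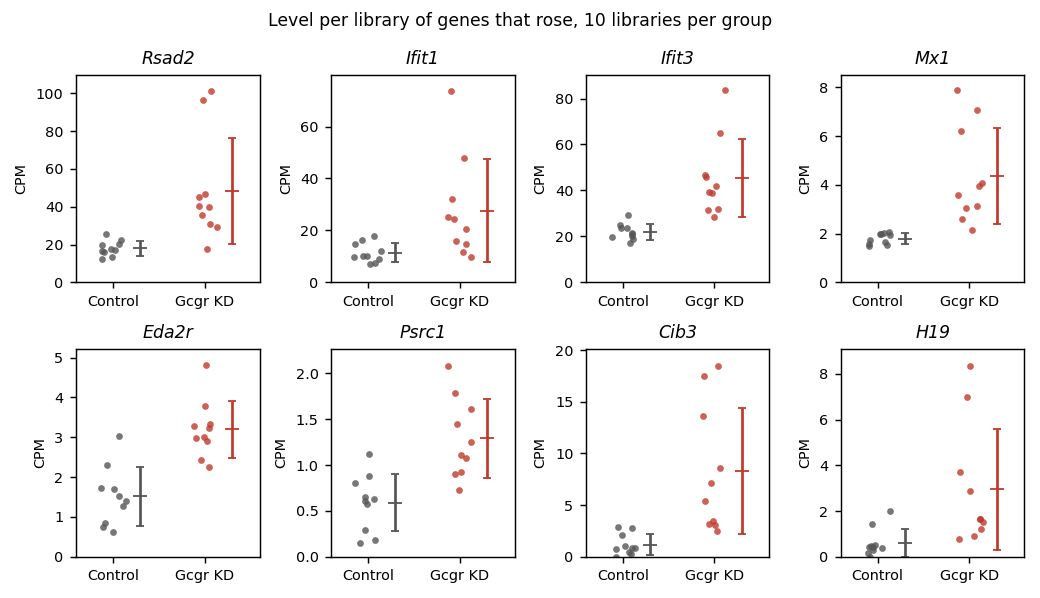
Level in CPM of 8 genes that rose with Gcgr KD, in each of 10 libraries per group (points) with the mean and SD beside them. Rsad2 reaches 101 CPM in the highest Gcgr KD library against a Control range of 12.4 to 25.4 CPM, and Mx1 shows no overlap between the groups.

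The steepest rises were of genes at low level in Control liver. Cib3, a calcium-binding protein, ran from 0 to 2.88 CPM (median 0.815) in Control and from 2.49 to 18.4 CPM (median 6.24) in Gcgr KD, a rise of 2.80 ± 0.52 (adjusted p = 0.000288). Defb1, a secreted antimicrobial defensin, ran from 0.141 to 2.04 CPM (median 1.13) and from 2.26 to 7.10 CPM (median 4.92), a rise of 2.16 ± 0.33 (adjusted p = 7.04e-06) with no overlap. Smpd3, a neutral sphingomyelinase, ran from 2.40 to 9.53 CPM (median 4.50) and from 9.30 to 30.1 CPM (median 21.5), a rise of 2.01 ± 0.30 (adjusted p = 5.19e-06) with 9 Gcgr KD libraries above all Control libraries. H19, an imprinted noncoding RNA, ran from 0 to 2.02 CPM (median 0.413) and from 0.770 to 8.32 CPM (median 1.64), a rise of 2.24 ± 0.66 (adjusted p = 0.0274) that lost its call without Gcgr KD replicate 1 or 4 or Control replicate 10 (adjusted p up to 0.0728).

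Ihh, a hedgehog ligand, had 0.294 to 1.28 CPM (median 1.10) in Control and 1.10 to 5.004 CPM (median 3.47) in Gcgr KD and rose by 1.68 ± 0.28 (adjusted p = 3.77e-05). Gria3, a glutamate receptor subunit, had 0.406 to 1.58 CPM (median 0.843) and 2.25 to 3.26 CPM (median 2.79), with no overlap, and rose by 1.602 ± 0.23 (adjusted p = 1.49e-06). Sprr1a, a cornified envelope protein, had 0.148 to 4.32 CPM (median 0.613) and 0.816 to 19.4 CPM (median 5.10) and rose by 2.53 ± 0.80 (adjusted p = 0.0411, lost on leaving out any 1 of 11 libraries). Orm3, an acute phase gene of a family whose reads the counting could split, had 0.739 to 6.04 CPM (median 2.81) and 7.44 to 17.0 CPM (median 10.6), with no overlap, and rose by 1.98 ± 0.28 (adjusted p = 1.49e-06). In the acute phase list Serpina3n, a protease inhibitor at 373 to 536 CPM in Control and 588 to 871 CPM in Gcgr KD, rose by 0.60 ± 0.14 (adjusted p = 0.0043), and these were the 2 called of 32 (6.25%, against 2.9% of all genes that rose). The complement protease C1s1 rose by 0.34 ± 0.056 (adjusted p = 3.74e-05) with no overlap.

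Genes that differ between male and female liver varied widely within both groups. A score of male-biased genes ran from -3.51 to 1.53 (log2, mean -0.65) in Control and from -2.19 to 1.73 (mean -0.15) in Gcgr KD. In a fit with that score as a covariate 673 genes rose and 788 fell. In the list of growth hormone, STAT5 and male-biased genes 2 of 27 rose (7.41%, against 2.9% of all genes) and 1 fell (3.7%, against 4.33%), with 12 changes below 0, and of 21 major urinary protein genes 1 rose (4.76%) and 0 fell. The fall was Elovl3, described above, and the rises were Cyp4a12a at 0.96 ± 0.24 (adjusted p = 0.00838), its near copy Cyp4a12b at 1.72 ± 0.56 (adjusted p = 0.0494) and the major urinary protein Mup20 at 1.17 ± 0.28 (adjusted p = 0.0043), all in families whose reads the counting could split. Cyp4a12b spanned 1.001 to 87.1 CPM (median 21.9) in Control and 15.9 to 188 CPM (median 61.3) in Gcgr KD, and its call was lost on leaving out any 1 of 14 libraries. The part of this variation in the other results was not tested.

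Conjugation enzymes of drug metabolism fell in 7 of 36 cases (19.4%, against 4.33% of all genes) and rose in 0 (13 lower and 4 higher at an unadjusted p under 0.05), among them the sulfotransferase Sult1a1 at -0.48 ± 0.11 (adjusted p = 0.00431) and, in families whose reads could be split, Gstt3 at -0.86 and Ugt1a9 at -1.09 (lost on leaving out any 1 of 11 libraries), and 3 fell without Gcgr KD replicate 8. Among 27 cytochromes of families 1 to 3, 2 rose (7.41%, against 2.9% of all genes) and 0 fell, with 4 higher and 3 lower at an unadjusted p under 0.05 and 2 rises and 1 fall by DESeq2. Cyp2b10, the usual marker of the receptor CAR, rose by 2.23 ± 0.55 (adjusted p = 0.00724) from a median of 0.299 to 2.01 CPM, and Cyp2c70, an enzyme of muricholic acid synthesis, rose by 0.79 ± 0.22 (adjusted p = 0.0164). None of 19 clock genes was called by edgeR, DESeq2 or limma-voom, with 1 lower at an unadjusted p under 0.05. Of 29 secreted liver hormones and binding proteins 1 rose (3.45%, near the 2.9% of all genes). It was Inhba, an activin subunit, at 0.66 ± 0.20 (adjusted p = 0.0349, lost on leaving out any 1 of 8 libraries). Fgf21, Igf1 and Igfbp1 were at -0.60 ± 0.37 (adjusted p = 0.354), -0.11 ± 0.16 (adjusted p = 0.734) and -0.29 ± 0.26 (adjusted p = 0.555).

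The antibody against the same receptor gave a second, separately controlled view of these genes, in libraries of 11.6 M to 19.5 M counts. There 375 of 12847 genes rose (2.92%) and 677 fell (5.27%), and no test was made across the experiments. Of the 583 falls of Gcgr KD tested in both, 502 had a change below 0 with Gcgr mAb (86.1%, where 46.81% of all genes did) and 177 were called falls. Of the 375 rises tested in both, 324 were above 0 (86.4%, where 53.19% of all genes were) and 74 were called rises. The 177 made up 30.4% of the falls of Gcgr KD and 26.2% of those of Gcgr mAb, and the 74 made up 19.7% and 19.8% of the rises. Over 12746 genes the log2 changes had a Pearson r of 0.504 and a Spearman rho of 0.503, as a description across genes, which are not independent replicates.

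The amino acid genes were among those lower in both experiments. Of the 8 lists, 34 of 110 tested members fell with Gcgr mAb and 2 rose, where 5.27% and 2.92% of all genes did. In both experiments 13 genes fell. Oat stood at -1.29 with Gcgr KD and -1.67 with Gcgr mAb, Arg1 at -0.63 and -0.68, Cbs at -0.68 and -0.78, and Gnmt at -0.70 and -0.67. Pck1 stood at -0.64 and -1.27, Fbp1 at -0.48 and -0.91, and Pde4b at -0.85 and -1.51. Of the genes that did not pass with Gcgr KD, several fell with Gcgr mAb, namely Tat at -0.80 (adjusted p = 1.6e-05), Sds at -1.50 (adjusted p = 2e-06) and Got1 at -2.22 (adjusted p = 2.3e-20), and whether the 2 changes differ was not tested. Fatty acid oxidation had 16 falls with Gcgr mAb among 30 genes and respiratory chain subunits 13 among 42. Both had 0 rises, and 5.27% of all genes fell.

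For the groups that follow, the shares of all genes that rose and fell with Gcgr mAb were 2.92% and 5.27%. Of the 78 genes below all other knockdowns 5 fell and 1 rose with Gcgr mAb, and their median was -0.05, against 172 falls, 1 rise and a median of -0.19 among the 505 other falls tested. Sec23b, Ergic1, Srp9, Rabac1 and Abt1 stood at 0.20, -0.09, -0.07, -0.23 and -0.07, none of them called. Ergic2 and Cfd were called in opposite directions, Cfd at -1.91 with Gcgr KD and 1.35 with Gcgr mAb (adjusted p = 0.02), and so was Dglucy, a p53 target gene at 0.25 and -0.24. Of the 48 interferon-stimulated genes 4 rose and 0 fell, with a median of 0.31 against 0.01 for all genes tested, and Rsad2 was at 0.32 (adjusted p = 0.57). Of 26 p53 target genes 0 rose and 2 fell, and Eda2r was at 0.04 (adjusted p = 0.93). The rises of Cib3, Defb1 and H19 stood at 3.79, 1.66 and 3.45, and all 3 were called.

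**Figure D4:**
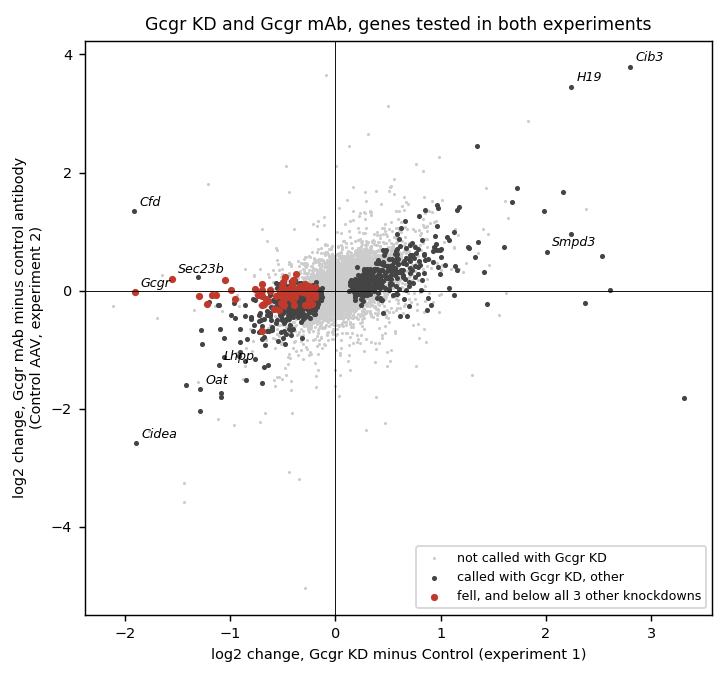
Log2 change of each of 12746 genes with Gcgr KD (x axis) and with Gcgr mAb (y axis), each against its own controls, with genes called with Gcgr KD in black and those also below all other knockdowns in red. Most black points lie in the lower left and upper right, while the red points extend along the x axis near 0 on the y axis.

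The named falls are set side by side across the knockdowns of experiment 1, whose changes share the Control libraries. Oat stood at -1.25 with Gnas KD, -1.27 with PKA KD and 0.39 with Epac2 KD, Pde4b at -0.65, -0.83 and 0.18, Arg1 at -0.89, -0.79 and 0.05, and Pck1 at -1.10, -1.03 and 0.16. Tested directly, Oat was higher in Epac2 KD than in Gcgr KD by 1.68 ± 0.20 (adjusted p = 7.13e-09), and Pde4b by 1.03 ± 0.17 (adjusted p = 8.23e-06). Pde4b was named for its fall in these same Gcgr KD libraries, a choice that bears on the size of its differences. Between Gnas KD and Gcgr KD the differences of Oat and Pde4b were 0.04 ± 0.19 (adjusted p = 0.946) and 0.20 ± 0.17 (adjusted p = 0.622), and between PKA KD and Gcgr KD they were 0.02 ± 0.19 (adjusted p = 0.962) and 0.02 ± 0.17 (adjusted p = 0.947). Ctcflos, a noncoding RNA next to Ctcfl, had 10.5 to 26.5 CPM (median 17.4) in Control and 5.75 to 9.91 CPM (median 7.43) in Gcgr KD and fell by 1.28 ± 0.25 (adjusted p = 0.000636), with no overlap. It was lower still in PKA KD than in Gcgr KD, by 1.11 ± 0.26 (adjusted p = 0.000867). Lhpp, a histidine and lysine phosphatase, had 46.2 to 86.5 CPM (median 60.3) and 18.9 to 36.7 CPM (median 28.7), with no overlap, and fell by 1.11 ± 0.14 (adjusted p = 1.69e-07).

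Sec23b and Ergic1 belong to the 78 genes chosen for being lower in Gcgr KD than in each other knockdown. Their direction and call in the contrasts below were thus fixed by that choice and support nothing further. Sec23b stood at 0.00, 0.07 and 0.02 in Gnas, PKA and Epac2 KD and was higher in each of them than in Gcgr KD, by 1.55 ± 0.11, 1.61 ± 0.11 and 1.56 ± 0.11 (adjusted p = 7.61e-16, 5.66e-17 and 5.26e-16). Ergic1 was higher in each by 1.47 ± 0.058, 1.69 ± 0.059 and 1.46 ± 0.058 (adjusted p = 3.7e-26, 1.32e-28 and 8.81e-26).

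**Figure D5:**
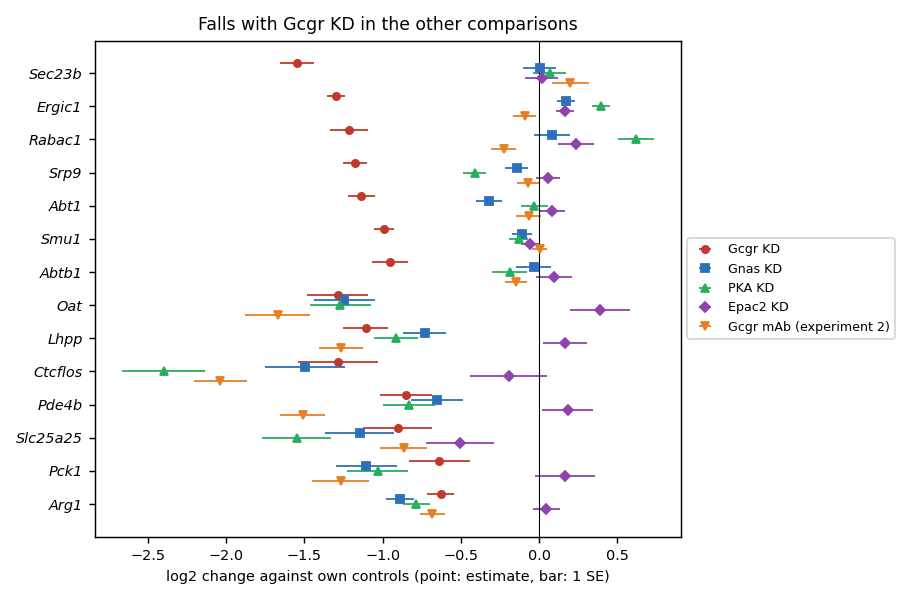
Log2 change (point) and SE (bar) of 14 genes that fell with Gcgr KD, in each knockdown against the shared Control libraries and with Gcgr mAb against its own controls. Oat, Lhpp, Ctcflos, Pde4b, Slc25a25, Pck1 and Arg1 are below 0 in Gcgr, Gnas and PKA KD and with Gcgr mAb, whereas Sec23b, Ergic1, Rabac1, Srp9, Abt1, Smu1 and Abtb1 are between -1.55 and -0.95 in Gcgr KD and no lower than -0.41 in the others. The genes from Sec23b to Abtb1 were chosen for being lower in Gcgr KD than in each other knockdown, so their gap to those knockdowns follows from the choice.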

How the data were processed

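Liver RNA of 90 mouse samples was sequenced, and 20 libraries enter the main comparison. The values, as the authors deposited them and per the file headers, are 1 estimated count per Entrez gene and sample, in 1 table per experiment. Per the submitters' processing notes, bcl2fastq 2.17 and FastQC were used with builds GRCm38 and mm10, while aligner and counter were not given in the sources used here. Counts (8.69% with a fractional part) were rounded, and 0 columns were unused. Groups came from the labels.

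All 50 libraries of experiment 1 were fitted with edgeR 4.0.16 in R 4.3.3 (filterByExpr, TMM, robust quasi-likelihood, 13574 of 24475 genes), and experiment 2 likewise (40 libraries, 12847 genes). Alternatives were RLE scaling, no filter, only the 20 libraries, DESeq2 1.42.0, limma-voom 3.58.1, a replicate block, a male-biased covariate and each library left out. Self-tests ran on simulated data. Members and gene lists (49 pathways, 12 cell type markers, 1147 genes, 2 unmatched) were chosen with earlier results of these data known. Named genes were 34 of glucagon biology, the 12 largest rises and falls, and up to 4 called members per list and direction, of which some are not reported here. Further list members (such as Ldha, Acadm, Ifit3 and Ccng1), Smu1, Abtb1, Ppp1cb, Rac1 and Samd9l were added after their values were seen, and single calls of these were not examined with libraries left out. Between libraries of a group counts differed beyond Poisson noise, by a chi-squared per degree of freedom of at least 14.1.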

Additional observations from a re-analysis of the deposited data

Results flagged for a closer look

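In 10 of 118 groups of 10 library values examined, 1 library lay far from the other 9 of its group, where chance alone flags about 1 group in 20. In Gcgr KD replicate 6, Cfd was at 10.2 CPM (next 4.27) and Cidea at 14.7 CPM (next 7.38). In Gcgr KD replicate 5, Ifit3b was at 29.0 CPM (next 15.02), Igf1 at 424 CPM (next 308) and the pancreatic acinar marker sum at 37.8 CPM (next 17.7). Fgf21 was at 14.6 CPM in Gcgr KD replicate 8 (next 8.41), the Kupffer cell marker sum at 860.1 CPM in Gcgr KD replicate 3 (next 503) and the cholangiocyte marker sum at 260.6 CPM in Gcgr KD replicate 4 (next 164). In Control, Crem was at 13.9 CPM in replicate 3 (next 9.30) and Cyp4a12b at 87.1 CPM in replicate 7 (next 36.8). Apart from these groups, Ergic2 stood out in a comparison of the experiments: it fell with Gcgr KD (-0.40) and rose with Gcgr mAb (0.18), with every library of the treated groups on that side of its control median, and this difference between experiments was not tested.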

How the results depend on the processing

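Rises and falls numbered 393 and 588 in the reported fit. They were 385 and 605 with RLE scaling, 464 and 691 with DESeq2, 365 and 576 with limma-voom, 342 and 448 with no filter, 558 and 729 with the 20 libraries fitted alone and 673 and 788 with a male-biased covariate. Leaving out 1 library gave 305 to 470 rises, 440 to 631 falls and 748 to 1101 calls in all. Gcgr fell in each setting. With the replicate block 401 genes rose and 616 fell; same-numbered Control and Gcgr KD libraries correlated at -0.382 to 0.246, 2 of 10 pairs above 0.1, and 0 of 10 Control libraries correlated best with its own number. No direction reversed among 164 named genes. Calls were lost for 27 with no filter, 6 with limma-voom, 7 with the replicate block and 3 with 20 libraries, and in 406 combinations of gene and library left out; the cause was not tested. Genes near or below 1 CPM in Control, such as Cib3, H19 and Prkar1b, rest on few counts in that group. H19 and Prkar1b were also low in Gcgr KD.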
